A study of Mus musculus musculus x Mus musculus castaneus with 8 samples.

Results

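Cyclin-dependent kinase inhibitors are small proteins that hold back the kinases of the cell cycle. The 6 mouse genes described here are Cdkn1a, Cdkn1b, Cdkn2a, Cdkn2b, Cdkn2c and Cdkn2d, taken by their symbols from a table of 24421 genes. All 6 had reads in every library and passed the filter on low counts that 12643 genes passed, and 5 of the 6 also had reads assigned to a parental allele. The cells were labelled as tail fibroblasts, female, of F1 hybrid origin, with Mus musculus musculus (mus) and Mus musculus castaneus (cas) as parents; the number of animals is not given in the sources used here. A read can be traced to its parent where it spans a sequence variant. There were 4 groups of 2 libraries of total RNA. Untreated cells received DMSO, the solvent, and the others received 5azadC (5-aza-2'-deoxycytidine, a cytidine analogue that blocks DNA methylation), VX680 (an inhibitor of the mitotic Aurora kinases) or both drugs, with the DMSO volume matched in all groups. Cultures on 15 cm plates were grown for 72 h, and the drugs went in at 24 h. The labels give neither the drug doses nor whether the hybrid cells are 1 clone, and they do not say whether the 2 libraries of a group came from separate cultures. The p-values below therefore measure the spread between these libraries, which may be technical. The main tests share 1 estimate of that spread over all groups, although the groups differed in it. Chi-square per degree of freedom between the 2 libraries of a group was 7.70 untreated, 20.4 with 5azadC, 3.09 with VX680 and 2.77 with both. Fits of only the groups compared, which do not share the spread of the other groups, changed the number of genes called. It went from 822 to 2014 between both drugs and VX680, and from 5332 to 4169 between 5azadC and untreated. Those fits also changed the set of genes tested, so how far the spread alone moved the p-values was not tested.

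The inhibitors form a pair of families. The Cip/Kip proteins p21 (Cdkn1a) and p27 (Cdkn1b) bind cyclin and kinase together and inhibit the cyclin E and cyclin A complexes of CDK2 in particular. The INK4 proteins p16 (Cdkn2a), p15 (Cdkn2b), p18 (Cdkn2c) and p19 (Cdkn2d) bind CDK4 and CDK6 and keep D-type cyclins from activating them, so that the retinoblastoma protein stays active and E2F-driven genes stay silent. In cultured fibroblasts p21 is a target of p53, p27 accumulates in resting cells, and the locus that holds Cdkn2a and Cdkn2b is a known brake on long-term growth.

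The libraries held 6908503 to 11169532 reads in genes, and 26.1% to 26.9% of these were assigned to an allele. Fibroblast markers were abundant, and their summed level differed between groups: 35071 to 39806 CPM (counts scaled to library size) in untreated libraries, 23098 to 26868 with 5azadC, 17823 to 18114 with VX680 and 15037 to 15581 with both. Of the 11 markers 10 were tested. In the order 5azadC, VX680 and both, 5, 6 and 6 of these fell and 2, 3 and 3 rose against untreated, with falls of the collagen genes Col1a1 (-0.99, -2.02 and -2.89 on the log2 scale) and Col3a1 (-1.50, -2.66 and -3.61). Markers of keratinocytes, endothelium, melanocytes and Schwann cells summed to at most 5.59 CPM in any library, and those of adipocytes, leukocytes, chondrocytes and skeletal muscle to at most 46.6 CPM. Some of these sums moved with the groups too. The 3 adipocyte markers summed to 0.586 to 2.09 CPM untreated, 3.34 to 3.43 with 5azadC, 13.3 to 16.2 with VX680 and 19.8 to 20.6 with both. Of these only Fabp4 was tested, and it rose in all 3 comparisons (log2 1.30, 3.41 and 3.87), with the 5azadC call lost when only those groups were fitted and without untreated replicate 2 or 5azadC replicate 1. The 4 skeletal muscle markers summed to 19.6 to 20.7 CPM untreated, 38.3 to 46.6 with 5azadC, 28.0 to 29.3 with VX680 and 27.7 to 28.1 with both. The 3 chondrocyte markers summed to 27.1 to 28.7, 24.4 to 27.4, 9.06 to 11.7 and 14.4 to 17.4 CPM in the same order. Of the 2 chondrocyte markers tested, 1 rose with 5azadC, and 1 rose and 1 fell with VX680 and with both. The 5azadC rise was lost when only 5azadC and untreated libraries were fitted. The 4 endothelial markers summed to 0.635 to 1.03, 1.23 to 2.19, 3.73 to 5.59 and 3.73 to 3.94 CPM, and both that were tested rose with VX680, of which 0 were called without either untreated library or VX680 replicate 2 and 1 without VX680 replicate 1, with DESeq2 or with only those groups fitted. Rn45s, the ribosomal RNA precursor, was 0.98 ± 0.13 (SE) higher on the log2 scale with both drugs than in untreated cells (edgeR, adjusted p = 3.26e-05). It is 1 of 7 genes read for RNA quality. Of these 3 rose and 1 fell with 5azadC, and 3 rose and 2 fell with VX680 and with both. Over all genes 42.2%, 46.1% and 55.7% were called. Jun, also of these 7, averaged 208 CPM untreated, 538 with 5azadC, 583 with VX680 and 606 with both. The part of these differences in the results below was not tested, and in bulk RNA fewer cells of a type and less RNA per cell cannot be told apart.

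Cdkn2a is the one locus of the 6 that encodes a pair of unrelated proteins, p16Ink4a and p19Arf, from separate first exons spliced to the same later exons. This matters for its values, since a count per gene cannot tell the products apart. Whether the counted gene covers both first exons is not given in the sources used here. The first 45 coding bases of each transcript (GENCODE M21 transcripts, start codon in capitals) come from those separate exons:
Cdkn2a-201 (p16Ink4a): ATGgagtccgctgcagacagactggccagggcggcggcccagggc
Cdkn2a-202 (p19Arf): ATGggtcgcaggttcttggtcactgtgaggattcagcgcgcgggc
The 2 transcripts then share 575 bases, which are 67.5% and 64.2% of their lengths. The first coding exon holds 126 coding bases in Cdkn2a-201 and 190 in Cdkn2a-202, which leaves a remainder of 0 and 1 base after whole codons. In the start of the shared exon, every other codon of each frame is in capitals, which makes the shift between the frames visible:
Cdkn2a-201 (p16Ink4a): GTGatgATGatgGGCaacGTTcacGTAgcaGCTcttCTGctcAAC
Cdkn2a-202 (p19Arf): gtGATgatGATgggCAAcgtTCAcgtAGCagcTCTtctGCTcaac

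Reads could in principle also be split between related genes. Cdkn2a and Cdkn2b lie next to each other on chromosome 4 with no annotated gene between them. Their longest shared coding run was 23 bases, cgggaaggcttcctggacacgct, and their coding sequences were 56.3% identical. The run ttcctggacac inside it, 11 bases long, is shared by Cdkn2a with Cdkn2c and Cdkn2d as well. No pair of the 6 genes shared a stretch of 50 bases. In the annotation used here Cdkn1a is overlapped on the opposite strand by 1 unclassified transcript, AC167363.2, and the other 5 genes by none. The libraries keep the strand, but whether the counting used it is not given in the sources used here.

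Cdkn1a, the p21 gene on chromosome 17, showed the largest rise of the 6 in each comparison with untreated cells. Its level was 39.98 and 42.51 CPM in the untreated libraries, 274.12 and 292.94 with 5azadC, 355.72 and 341.33 with VX680, and 399.72 and 406.95 with both. The untreated libraries were the lowest, the combination the highest, and no 2 groups overlapped. The rise over untreated was 6.89-fold with 5azadC (log2 2.78 ± 0.10 SE, adjusted p = 1.68e-09), 8.47-fold with VX680 (3.08 ± 0.10, 1.54e-10) and 9.80-fold with both (3.29 ± 0.10, 4.15e-11), by edgeR's quasi-likelihood test with Benjamini-Hochberg adjustment over all genes.

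Adding VX680 to 5azadC raised Cdkn1a further, by 0.51 ± 0.09 on the log2 scale (adjusted p = 0.000732). Adding 5azadC to VX680 gave 0.21 (95% interval 0.03 to 0.39, adjusted p = 0.175), which did not pass the threshold in the fit over all 8 libraries but did when only these groups were fitted (adjusted p = 0.0172). VX680 gave a level 0.30 ± 0.08 higher than 5azadC (adjusted p = 0.029). That call was lost when only those groups were fitted (0.0788) and when 5azadC replicate 1 (0.0756), VX680 replicate 1 (0.213) or 2 (0.135), or combination replicate 1 (0.0626) or 2 (0.0628) was left out. The joint level of 403 CPM was 16.8% of the 2395 CPM that the product of the single-drug folds would give, and 68.3% of the 591 CPM that the sum of the single-drug increases would give. The difference from the product, the interaction on the log2 scale, was -2.57 ± 0.13 (adjusted p = 1.94e-07).

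Cdkn1b, the p27 gene on chromosome 6, moved the other way. It was at 331.39 and 358.53 CPM in untreated libraries, 155.51 and 188.84 with 5azadC, 167.99 and 161.67 with VX680, and 113.32 and 109.16 with both. Untreated libraries were the highest and the combination the lowest, while the single drugs overlapped each other. Against untreated it fell 2.0-fold with 5azadC (log2 -1.0 ± 0.10, adjusted p = 5.1e-06), 2.09-fold with VX680 (-1.06 ± 0.10, 2.3e-06) and 3.10-fold with both (-1.63 ± 0.10, 2.9e-08). The replicates of the 5azadC group differed 1.21-fold, against at most 1.08-fold in the other groups.

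The combination lowered Cdkn1b beyond either drug alone. Against 5azadC it fell by 0.63 ± 0.10 on the log2 scale (adjusted p = 0.000713). Against VX680 it fell by 0.57 ± 0.10 (adjusted p = 0.00565), although without VX680 replicate 1 or 2 the adjusted p was 0.104 or 0.052, and without combination replicate 1 or 2 it was 0.0696 or 0.101. The joint level of 111 CPM was 136% of the 81.9 CPM given by the product of the single folds. The interaction was 0.44 (95% interval 0.12 to 0.75, adjusted p = 0.0592), which did not pass the threshold. It passed with no low-count filter and without 5azadC replicate 2, and in the latter fit it was 0.60.

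**Figure D1:**
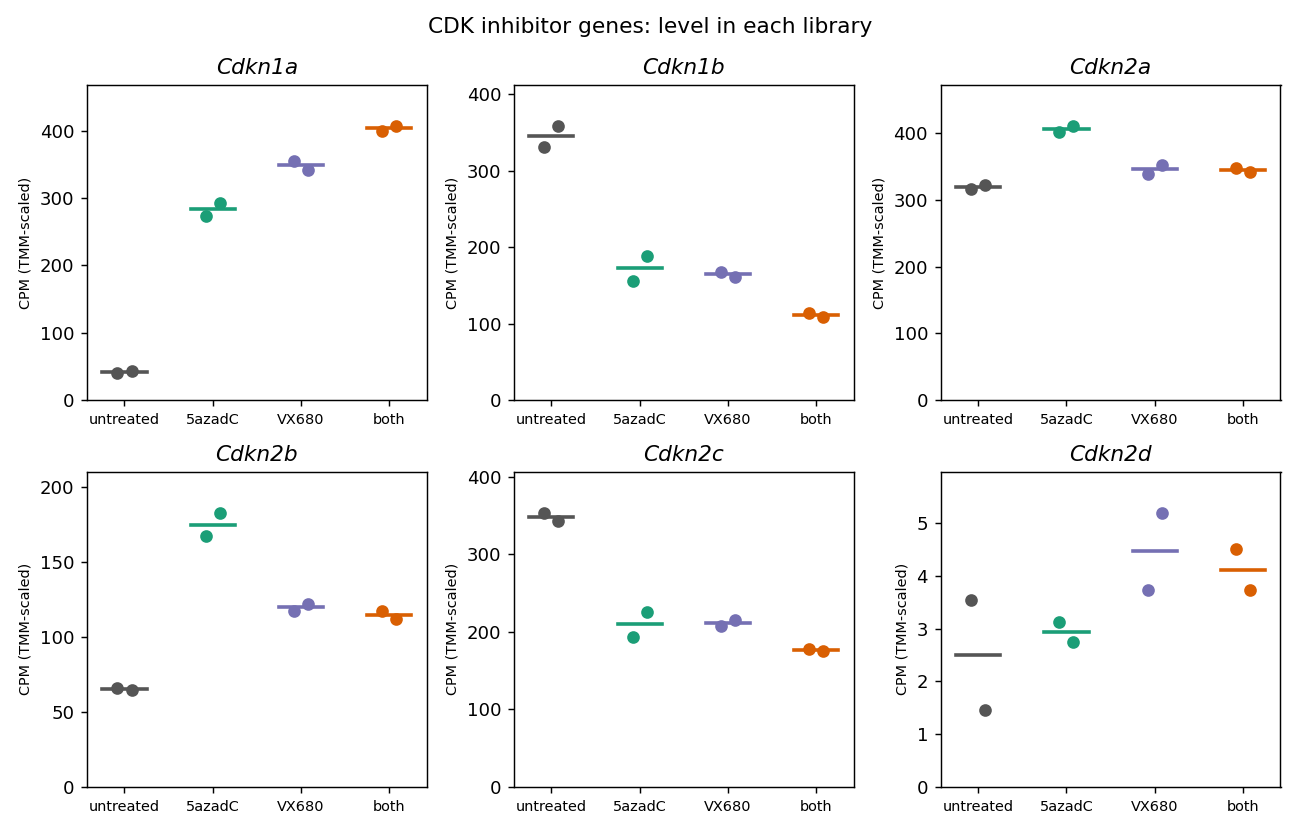
Level of each inhibitor gene in each library, in CPM after TMM scaling (vertical axes start at 0 and differ between genes). Points are libraries, bars are group means, and "both" is 5azadC+VX680. Cdkn1a and Cdkn2b were lowest in the untreated libraries, and Cdkn1b and Cdkn2c were highest there.

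Cdkn2a, the p16Ink4a and p19Arf gene, changed little. It was at 315.80 and 323.20 CPM in untreated libraries, 401.42 and 410.88 with 5azadC, 339.71 and 351.85 with VX680, and 347.98 and 342.23 with both. The 5azadC libraries were the highest and the untreated libraries the lowest, and VX680 and the combination overlapped. The rise with 5azadC was 1.27-fold (log2 0.35 ± 0.08, adjusted p = 0.00372). The reads assigned to an allele did not show this rise. Their mus level was 100.7 and 119.0 CPM untreated and 106.8 and 114.9 with 5azadC. Their cas level was 87.6 and 83.5 CPM untreated and 76.2 and 84.3 with 5azadC. The authors' deposited tables give log2 changes of 0.39 on mus and 0.30 on cas (false discovery rates 0.210 and 0.228). Why these values differ was not tested.

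With VX680 the Cdkn2a difference was 0.11 (95% interval -0.06 to 0.29, adjusted p = 0.272) and with both drugs 0.11 (-0.06 to 0.29, adjusted p = 0.263), and neither passed. On the authors' deposited normalized signal limma gave 0.22 (adjusted p = 0.0331) and 0.22 (adjusted p = 0.0307), a scaling that also moved the median of all genes to 0.12 in both comparisons. Against 5azadC the combination was 0.23 ± 0.08 lower (log2 -0.23, adjusted p = 0.0491). That call lay at the threshold and was lost in each of the 6 other settings run on it, with adjusted p from 0.051 to 0.254, and on leaving out any library but 5azadC replicate 1 (0.0558 to 0.213). The interaction was -0.35 (95% interval -0.60 to -0.10, adjusted p = 0.056). It passed with no low-count filter and without 5azadC replicate 1.

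Cdkn2b, the neighbour that encodes p15 and is known to respond to TGF-beta, rose in all 3 treated groups. Its level was 66.19 and 64.64 CPM in untreated libraries, 166.99 and 182.67 with 5azadC, 117.52 and 121.86 with VX680, and 117.54 and 111.78 with both. The 5azadC libraries were the highest, the untreated libraries the lowest, and VX680 and the combination overlapped. The rise was 2.67-fold with 5azadC (log2 1.42 ± 0.09, adjusted p = 1.44e-07), 1.83-fold with VX680 (0.87 ± 0.09, 7.5e-06) and 1.75-fold with both (0.81 ± 0.10, 8.45e-06).

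The combination thus held less Cdkn2b RNA than 5azadC alone, by -0.61 ± 0.09 on the log2 scale (adjusted p = 0.00036). It did not differ detectably from VX680 (-0.06, 95% interval -0.26 to 0.14, adjusted p = 0.777). VX680 itself was 0.55 ± 0.09 below 5azadC (log2 -0.55, adjusted p = 0.00115). The joint level of 115 CPM was 35.9% of the product of the single folds (320 CPM) and 50.1% of the sum of the single increases (229 CPM), and the interaction was -1.48 ± 0.13 (adjusted p = 1.07e-05).

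Cdkn2c, the p18 gene, also on chromosome 4, fell with each treatment. It was at 353.52 and 342.99 CPM in untreated libraries, 193.52 and 225.46 with 5azadC, 207.76 and 215.21 with VX680, and 177.57 and 175.81 with both. Untreated libraries were the highest, the combination the lowest, and the values with VX680 lay between those of the 5azadC libraries. The fall was 1.66-fold with 5azadC (log2 -0.73 ± 0.09, adjusted p = 3.27e-05), 1.65-fold with VX680 (-0.72 ± 0.09, 3.1e-05) and 1.97-fold with both (-0.98 ± 0.09, 1.18e-06).

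The further fall of Cdkn2c with both drugs did not pass against 5azadC (-0.24, 95% interval -0.45 to -0.04, adjusted p = 0.0744) or VX680 (-0.26, -0.46 to -0.06, adjusted p = 0.133). Without 5azadC replicate 1 the first did (-0.36, adjusted p = 0.00695). The second did when only those groups were fitted (adjusted p = 0.011) and without 5azadC replicate 1 (0.0282) or 2 (0.0317). The interaction, 0.48 ± 0.13 (adjusted p = 0.0264), was positive, so the joint fall was smaller than the product of the single falls. It was lost without untreated replicate 1 (0.0693), VX680 replicate 1 (0.133) or 2 (0.0903), or combination replicate 1 (0.102) or 2 (0.0967).

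Cdkn2d, which encodes p19Ink4d and lies on chromosome 9, was near the limit of measurement. It had 39 and 10 reads in the untreated libraries, 28 and 20 with 5azadC, 38 and 39 with VX680 and 32 and 27 with both, which is 1.47 to 5.19 CPM. The untreated libraries differed 2.41-fold from each other and overlapped the 5azadC group, while both VX680 and both combination libraries lay above them. No comparison passed: the log2 difference from untreated was 0.16 with 5azadC (95% interval -0.78 to 1.10), 0.75 with VX680 (-0.15 to 1.64) and 0.64 with both (-0.28 to 1.56), with adjusted p of 0.794, 0.159 and 0.218. Without untreated replicate 1 the differences with VX680 (1.57, adjusted p = 0.0409) and both drugs (1.46, adjusted p = 0.0457) passed.

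**Figure D2:**
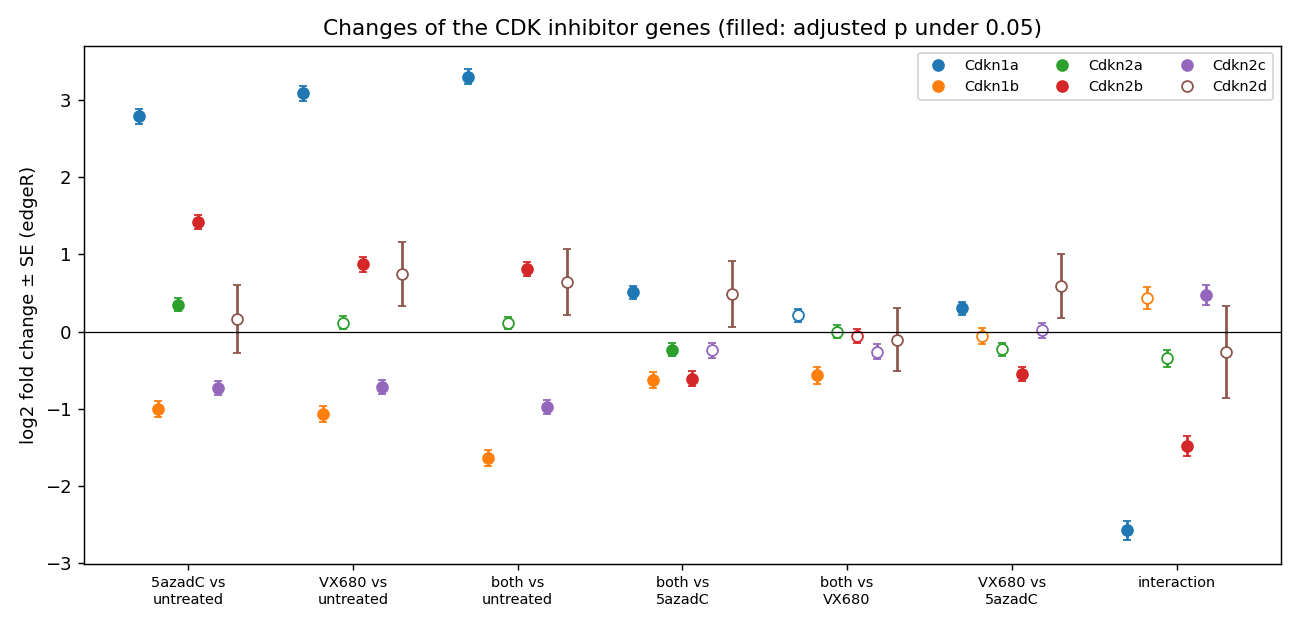
Log2 fold change of each inhibitor gene with its standard error in the 6 comparisons between groups and the interaction (both minus 5azadC minus VX680 plus untreated). Filled points passed an adjusted p of 0.05 in edgeR's test, and "both" is 5azadC+VX680. Cdkn1a and Cdkn2b lie above 0 and Cdkn1b and Cdkn2c below 0 in each comparison with untreated cells.

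Counted together, 5 of the 6 genes were called with 5azadC, 3 higher and 2 lower, where 42.2% of all genes tested were called (22.6% higher, 19.6% lower). With VX680 4 were called, 2 higher and 2 lower, against 46.1% of all genes (23.8% and 22.4%). With both drugs 4 were called, again 2 in each direction, against 55.7% (28.4% and 27.3%). Between treated groups, 4 of 6 differed between the combination and 5azadC, 1 higher and 3 lower, against 24.8% of all genes (9.98% and 14.8%). Between the combination and VX680 1 was lower, against 6.5% (2.45% higher, 4.05% lower). VX680 differed from 5azadC in 2, 1 in each direction, against 15.8% (6.47% and 9.33%). The interaction was called for 3, 1 positive and 2 negative, against 15.6% (4.95% and 10.6%). The comparisons against untreated share the same untreated libraries. The median log2 difference of the 6 genes was 0.25, 0.43 and 0.38 in the order 5azadC, VX680 and both, beside 0.00, 0.01 and 0.01 over all genes. Each median of the 6 lies midway between the values of Cdkn2a and Cdkn2d, so it rests in part on Cdkn2d, which was near the limit of measurement. On the deposited signal 63.0% of the genes called with VX680 were higher, against 51.5% in edgeR's fit on the counts.

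Levels of different genes can be set side by side only per length. Per kb of gene length, Cdkn2a was the highest of the 6 in all 8 libraries, with 342 to 350 CPM per kb untreated and 434 to 445 with 5azadC, and it held between 45.2% and 50.5% of the summed level of the 6 genes. In untreated cells Cdkn2c (171 ± 3.66 CPM per kb, SD, n = 2), Cdkn1b (144 ± 7.99), Cdkn2b (47.1 ± 0.79) and Cdkn1a (21.6 ± 0.93) followed, and Cdkn2d was lowest (1.98 ± 1.16). No neighbours in that order overlapped between libraries. Cdkn1a was thus the lowest but for Cdkn2d, and in each treated group only Cdkn2a was above it, at 149 ± 6.97 with 5azadC, 183 ± 5.33 with VX680 and 211 ± 2.68 with both. The order depends on the length given for each gene. Without scaling to length Cdkn2a ranked 3 untreated, 1 with 5azadC, and 2 with VX680 and with both. Cdkn1a then ranked 5 untreated, 2 with 5azadC, and 1 with VX680 and with both.

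The balance within each family shifted accordingly. The ratio of Cdkn1a to Cdkn1b per length was 0.15 in both untreated libraries, 2.22 and 1.95 with 5azadC, 2.66 in both VX680 libraries, and 4.44 and 4.69 with both. The ratio of Cdkn2b to Cdkn2c was 0.27 and 0.28 untreated, 1.26 and 1.19 with 5azadC, 0.83 in both VX680 libraries, and 0.97 and 0.93 with both. The p21 gene thus went from below to above the p27 gene in every treated library, whereas per length the p15 gene passed the p18 gene only with 5azadC. That second crossing rested on the scaling to length. By CPM alone Cdkn2c stayed above Cdkn2b with 5azadC, at a mean of 209 against 175 CPM. The sum over the 6 genes moved less, from 725 and 738 CPM per kb untreated to 861 and 921 with 5azadC, 814 and 825 with VX680, and 809 and 799 with both.

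**Figure D3:**
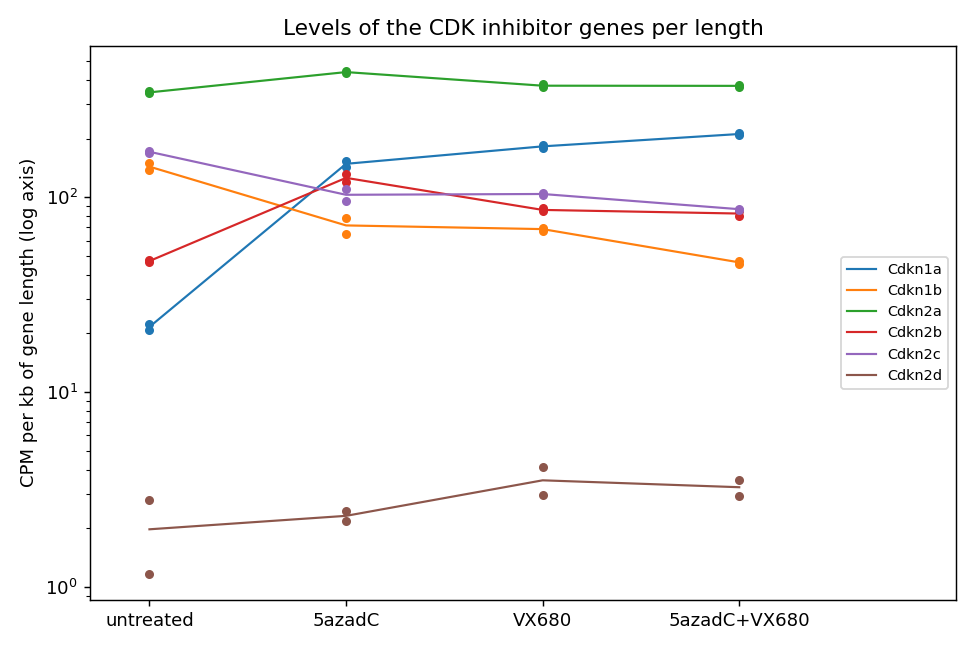
Level per kb of gene length (CPM per kb, log axis) of the 6 inhibitor genes by group. Points are libraries and lines join group means; Cdkn1a lies above Cdkn2d alone in untreated cells and below Cdkn2a alone in the treated groups, and Cdkn2a is highest throughout.

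The allele-specific reads give the same genes on each parental chromosome separately. In untreated cells Cdkn2a and Cdkn2b had unequal alleles, in opposite directions although they are neighbours: 2 of 5 genes tested, where 38.2% of the 10301 genes tested were called and the median mus to cas log2 ratio was -0.20. Cdkn2a gave 53.5% of 2077 reads and 58.8% of 1382 reads from the mus allele (exact 95% intervals 51.3% to 55.7% and 56.1% to 61.4%, which cover counting error only), a log2 ratio of mus to cas of 0.35 ± 0.09 (edgeR, adjusted p = 0.00177). Cdkn2b gave 32.4% of 105 reads and 33.3% of 60 reads from mus (23.6% to 42.2% and 21.7% to 46.7%), a log2 ratio of -1.03 ± 0.32 (adjusted p = 0.00731). Each call was lost without 1 library: without untreated replicate 2 the Cdkn2a ratio was 0.20 (adjusted p = 0.256), and without untreated replicate 1 the Cdkn2b ratio was -1.0 (adjusted p = 0.131).

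The Cdkn2a excess of mus reads was present in every library. It was 58.3% and 57.7% with 5azadC, 56.2% and 58.3% with VX680, and 56.4% and 59.0% with both, and it was called in each treated group (adjusted p = 5.57e-05, 0.000237 and 0.000134), where 38.2%, 38.4% and 37.9% of all genes were called. The mus share of Cdkn2b was 36.2% and 31.0% with 5azadC, 43.3% and 45.6% with VX680, and 37.1% and 52.1% with both. The excess of cas reads was called with 5azadC (log2 ratio -0.98 ± 0.26, adjusted p = 0.00244, and 0.103 without 5azadC replicate 2) and not with VX680 (-0.33, 95% interval -0.87 to 0.22) or both (-0.34, -0.92 to 0.24).

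The change of that ratio was tested directly. For Cdkn2b it was 0.71 ± 0.42 with VX680 (95% interval -0.13 to 1.55, adjusted p = 0.866) and 0.69 ± 0.43 with both (-0.17 to 1.55, adjusted p = 0.742), at 94 to 164 reads a library, so no change was detectable at this depth. Of the 5 genes tested 0 had a changed allele ratio by edgeR in any of the 3 treatments, where 0.282%, 0.379% and 0.515% of all genes did. For Cdkn1b the change with 5azadC was 0.39 ± 0.18 (adjusted p = 0.729), which did not pass. Its mus share was 49.2% and 45.5% untreated and 51.1% and 57.0% with 5azadC. Cdkn1a stayed between 46.3% and 55.2% mus in all 8 libraries, with 147 to 2032 reads. Cdkn2c was between 39.5% and 55.9%, with a called cas excess in the 5azadC group (-0.52 ± 0.16, adjusted p = 0.00799, and 0.162 without 5azadC replicate 2). Cdkn2d had 0 allele-assigned reads in every library.

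Both alleles of the p21 gene rose alike in the authors' own fits. In the authors' deposited tables the log2 fold change of Cdkn1a was 2.71 on the mus and 2.85 on the cas allele with 5azadC, 3.14 and 3.24 with VX680, and 3.33 and 3.47 with both. For Cdkn2b the authors' deposited tables give 1.44 and 1.42 with 5azadC, 1.41 and 0.72 with VX680, and 1.33 and 0.68 with both. For Cdkn1b they were -0.82 and -1.19, -0.96 and -0.94, and -1.51 and -1.53 in the authors' deposited tables. Cdkn2a had a false discovery rate of at least 0.210 on either allele in the authors' deposited tables, and Cdkn2d is not listed in them.

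**Figure D4:**
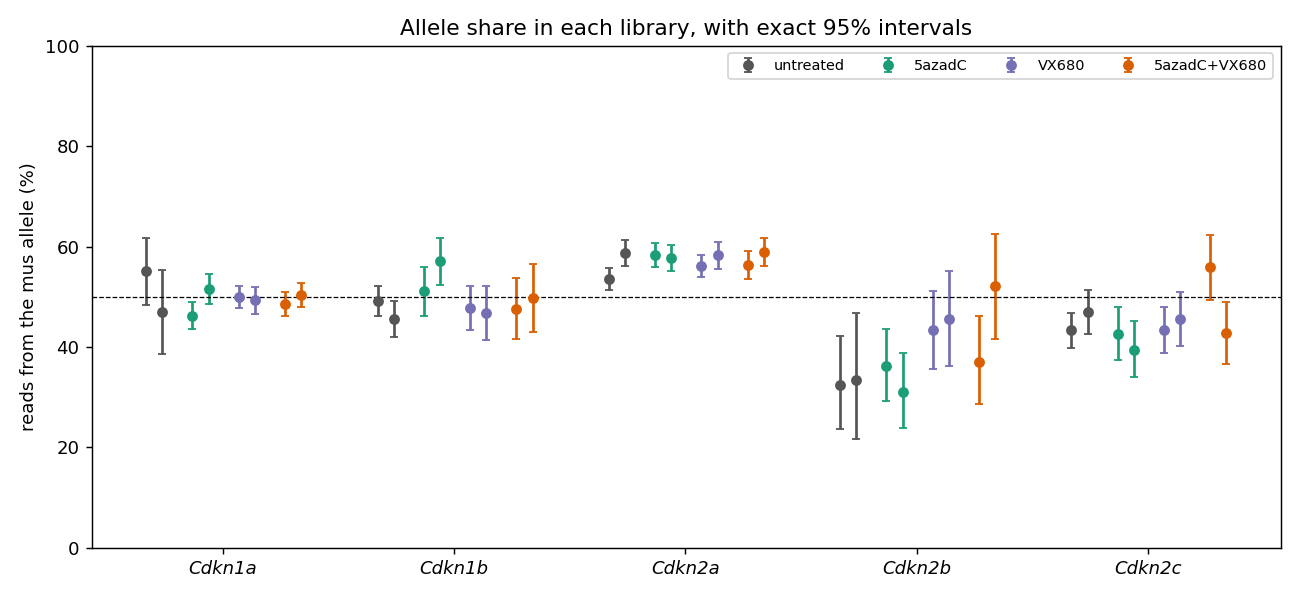
Share of allele-assigned reads from the mus allele in each library, in percent, with exact 95% intervals for counting error; the dashed line marks equal alleles. Cdkn2a lies above the line in all 8 libraries, and Cdkn2b below it in all libraries but 1 of the combination.

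The direct targets of the inhibitors are the cyclins and their kinases. Of 20 CDK and cyclin genes (with their activating and inhibiting kinases and phosphatases), 5 rose and 2 fell with 5azadC, 4 rose and 4 fell with VX680, and 8 rose and 5 fell with both, with medians of -0.07, 0.15 and 0.20. These counts, and those of the lists that follow, stand beside the 42.2%, 46.1% and 55.7% of all genes called in the 3 comparisons, and no difference of a list from all genes was tested. Of the D-type cyclins, which the INK4 proteins keep from activating CDK4 and CDK6, Ccnd1 rose by 2.52 ± 0.11, 3.0 ± 0.12 and 3.50 ± 0.12 on the log2 scale, and Ccnd2 by 2.0 ± 0.13, 1.97 ± 0.13 and 2.13 ± 0.13. Ccnd3 rose with 5azadC (0.41 ± 0.09) and gave 0.12 with VX680 (adjusted p = 0.313) and 0.03 with both (0.789). Cdk6 rose with 5azadC (1.55 ± 0.31) and both (1.27 ± 0.32), and gave 0.74 with VX680 (adjusted p = 0.0796). Cdk2, the chief kinase bound by p21 and p27, fell by 0.43 ± 0.09, 0.40 ± 0.09 and 0.62 ± 0.09. The VX680 rises numbered 9, and the falls 2, on the deposited signal, and the rises 8 when only the groups compared were fitted. The rises numbered 8 or 7 without 5azadC replicate 1 or 2, and 2 falls remained in number without VX680 replicate 2. With both drugs there were 5 rises without untreated replicate 1 or combination replicate 2, and 3 falls without the latter. The 5azadC falls numbered 4 without 5azadC replicate 1.

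Downstream of these kinases stand the retinoblastoma family and E2F. Of 13 such genes 3 rose and 3 fell with 5azadC, 4 rose and 6 fell with VX680, and 4 rose and 5 fell with both (medians -0.26, -0.32 and -0.22). Tfdp2, a dimer partner of E2F, fell by 0.88 ± 0.12, 0.63 ± 0.12 and 0.95 ± 0.12, while its relative Tfdp1 rose by 0.41 ± 0.10, 0.36 ± 0.09 and 0.61 ± 0.10. E2f4, a repressor E2F, rose by 0.62 ± 0.13, 0.46 ± 0.13 and 0.64 ± 0.13. Rbl2, the p130 pocket protein, fell by 0.49 ± 0.13, 0.52 ± 0.13 and 0.73 ± 0.13. The 3 rises with 5azadC held in the main fit only, and numbered 2 in every alternative fit that kept 2 libraries per group. The 4 rises with VX680 numbered 1 without untreated replicate 1 or VX680 replicate 1 and 2 without VX680 replicate 2, and the 4 with both numbered 2 without untreated replicate 1 or combination replicate 1.

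Among 14 S phase genes that E2F drives, 1 rose and 4 fell with 5azadC, 2 rose and 5 fell with VX680, and 2 rose and 2 fell with both (medians -0.12, -0.20 and -0.13). Mcm6, of the replicative helicase, fell with all 3 (-0.27 ± 0.09, -0.63 ± 0.09 and -0.62 ± 0.10), and Rrm2, of ribonucleotide reductase, rose with all 3 (0.50 ± 0.09, 0.62 ± 0.09 and 1.06 ± 0.09). Pcna, the sliding clamp, fell with 5azadC (-0.34 ± 0.13) and VX680 (-0.54 ± 0.13) and gave -0.28 with both (adjusted p = 0.074). The 4 falls with 5azadC numbered 0 with no low-count filter or with only the groups compared, and 1 with the replicate block or on the deposited signal. They numbered 2 without untreated replicate 2 or 5azadC replicate 2, and 0 without untreated replicate 1 or without any 1 of the VX680 or combination libraries. The falls with VX680 numbered 3 on the deposited signal or without untreated replicate 1, 2 without VX680 replicate 2 and 8 without either 5azadC library, and those with both numbered 5 without either 5azadC library. Of the VX680 rises 1 was left in number without untreated replicate 2.

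Regulators that act on the Cip/Kip genes were measured for 11 of 12 listed (all but Trp63). With 5azadC 4 rose and 1 fell, with VX680 5 rose and 3 fell, and with both 4 rose and 4 fell (medians 0.22, 0.02 and 0.05). Trp53, the p53 gene, rose by 0.57 ± 0.12, 0.46 ± 0.12 and 0.73 ± 0.12, and Mdm2, a p53 target that marks p53 for degradation, by 1.32 ± 0.09, 1.68 ± 0.09 and 2.24 ± 0.09. Myc, which represses p21 transcription, rose by 2.45 ± 0.14, 2.56 ± 0.14 and 2.92 ± 0.14. Klf4, an activator of p21, rose with 5azadC (1.21 ± 0.14) and VX680 (0.66 ± 0.14) and gave 0.33 with both (adjusted p = 0.059). Foxo4, of the FOXO factors that activate p27, fell by 0.91 ± 0.12, 0.82 ± 0.12 and 1.31 ± 0.12. Among the VX680 and joint rises is Trp73, which had 0 reads in both untreated libraries, 14 and 6 with VX680 and 11 and 0 with both. The VX680 rises numbered 3 without untreated replicate 1, and the 5azadC falls 2 without it.

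Of 11 genes that act in the breakdown of p21 and p27, 1 rose and 1 fell with 5azadC, and 3 rose and 1 fell with VX680 and with both (medians 0.02, 0.05 and 0.07). Skp2, which brings p27 to the ubiquitin ligase, gave -0.05, -0.16 and 0.01, none called. Cdc20, the mitotic activator of the anaphase-promoting complex, rose by 0.37 ± 0.10, 0.93 ± 0.10 and 1.04 ± 0.10, and Dtl, which directs p21 to a ligase in S phase, fell by 0.38 ± 0.13, 0.39 ± 0.13 and 0.49 ± 0.13. The 3 rises numbered 1 without untreated replicate 2 or either VX680 library (VX680) or either combination library (both). The 5azadC rise numbered 0 without untreated replicate 1 and 2 without 5azadC replicate 1. The single falls numbered 0 without untreated replicate 1 in all 3 comparisons, without 5azadC replicate 2 or with only the groups compared (5azadC) and without either VX680 library or on the deposited signal (VX680).

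Of 21 regulators of the Ink4 genes, which include Polycomb subunits that silence the Cdkn2a and Cdkn2b locus, 5 rose and 7 fell with 5azadC, 5 rose and 10 fell with VX680, and 5 rose and 9 fell with both (medians -0.10, -0.30 and -0.27). The histone methyltransferase Ezh1 fell by 1.16 ± 0.14, 1.47 ± 0.14 and 1.67 ± 0.15, and the Polycomb subunit Cbx2 by 0.75 ± 0.10, 0.70 ± 0.10 and 0.92 ± 0.11. Smad3, which carries the TGF-beta signal to the nucleus, fell by 0.45 ± 0.09, 0.71 ± 0.10 and 0.83 ± 0.10. Id1, a repressor of p16 transcription, rose by 0.90 ± 0.12, 1.01 ± 0.12 and 1.36 ± 0.12. No library moved these counts by more than 1.5 times when left out.

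**Figure D5:**
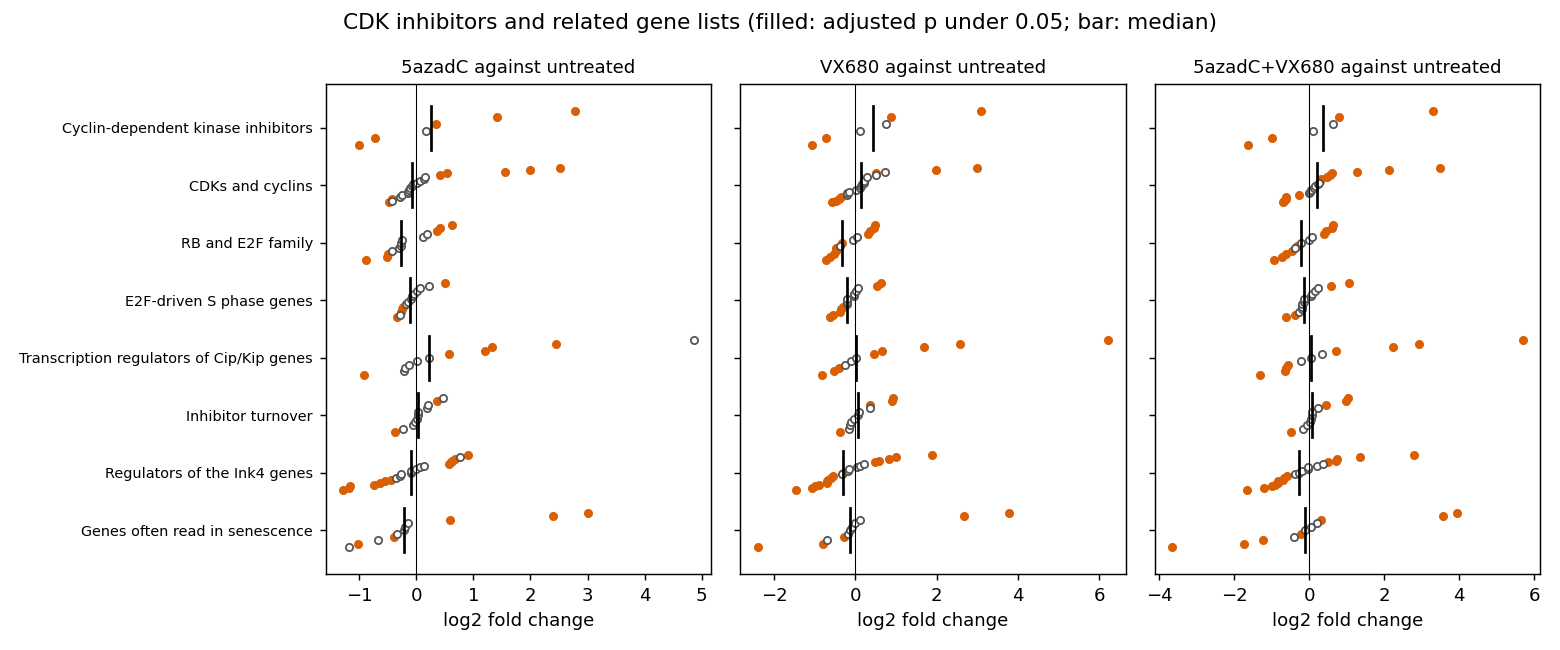
Log2 fold change against untreated of the 6 inhibitors and of the genes in 7 related lists, by comparison. Each point is a gene (filled where the adjusted p is under 0.05) and the bar is the list's median, which lies within 0.5 of 0 for each list shown.

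Of 3 other genes named as inhibitors, Cdkn1c, the third Cip/Kip gene (p57), fell by 1.03 ± 0.21 with 5azadC, 1.67 ± 0.21 with VX680 and 1.49 ± 0.21 with both. Cdkn3, a phosphatase of CDK2, gave -0.25, 0.29 and 0.46, and Cdkn2aip, whose product binds p19Arf, gave 0.03, 0.26 and 0.24, none of them called. On the deposited signal 1 of the 3 rose with VX680 and 1 with both. Of 11 genes measured that are often read in senescent cells, where p16 and p21 are high, 3 rose and 2 fell with 5azadC, 2 rose and 3 fell with VX680, and 3 rose and 4 fell with both (medians -0.23, -0.12 and -0.10). Cxcl1, a secreted chemokine, rose by 2.39 ± 0.56, 2.67 ± 0.54 and 3.56 ± 0.52. Igfbp3, a binding protein of insulin-like growth factors, fell with VX680 (log2 -2.41 ± 0.40) and both (-3.65 ± 0.48), and gave -0.68 with 5azadC (adjusted p = 0.135). Glb1, the lysosomal galactosidase read in senescence stains, fell by 1.02 ± 0.11, 0.80 ± 0.11 and 1.24 ± 0.11. Mki67, a proliferation marker, fell by 0.40 ± 0.09, 0.29 ± 0.09 and 0.22 ± 0.09. Some genes of the CDK and cyclin list moved otherwise, while Cdk2 fell as given above. In mean CPM untreated and with 5azadC, VX680 and both, Cdk1 was at 155, 156, 222 and 226. Ccna2 was at 226, 217, 262 and 275, and Ccnb2 at 129, 119, 153 and 162. The 5azadC falls among the genes often read in senescence numbered 4 without 5azadC replicate 2.

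Over the 8 libraries, which form only 4 groups, the members went together or apart as their levels above show. Pearson's r of log2 CPM was 0.983 between Cdkn1b and Cdkn2c, 0.925 between Cdkn2a and Cdkn2b, and -0.967 between Cdkn1a and Cdkn2c. Among the 11575 tested genes whose mean log2 CPM reached 1, those most like Cdkn1a were Lrrc59 (r = 0.998), Jun (0.997) and Tpst2 (0.997). Those most like Cdkn1b were Nynrin (0.998), Foxn3 (0.997) and Tmem132a (0.996), and those most like Cdkn2c were Arap1 (0.999), Ppp4r1l-ps (0.997) and Podxl2 (0.997). Cdkn2b was closest to Tpm2 (0.991), Sgpp1 (0.987) and Ptprv (0.986), and Cdkn2a to Dok4 (0.984), Xxylt1 (0.979) and Acta1 (0.974). For Cdkn2d, with its few reads, they were 4933413G19Rik (0.972), Krr1 (0.963) and A230046K03Rik (0.952). These values describe 8 points that share their libraries and depth, and no test was made of them.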

How the data were processed

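The submitters' processing notes list the build mm9 and the programs TopHat2 2.0.10, HOMER 4.8 and edgeR, with no role stated. The authors deposited raw counts per gene (both alleles together), raw counts per mus and cas allele, a normalized signal that equals the raw counts times 1 factor per library, and tables of their allelic comparisons with log2 fold changes, log2 CPM, p-values and false discovery rates. Per the file headers, other columns give gene lengths in bases; this length was used for CPM per kb. No row without a gene name entered a test.

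Counts were tested in R 4.3.3 by edgeR 4.0.16, after filterByExpr had kept 12643 genes, with TMM scaling, 1 mean per group over all 8 libraries, quasi-likelihood F tests, and Benjamini-Hochberg adjusted p under 0.05. A gene is called higher or lower only where it passed. The standard error is the log2 fold change over the root of F. Allele ratios were tested by edgeR on both allele columns of each library, with terms for the library and for the mus allele of each group; 10301 genes averaged 10 or more allelic reads. Log2 CPM used a prior count of 2. Alternatives were DESeq2 1.42.0, RLE scaling, no low-count filter, limma 3.58.1 on log2 of the deposited signal plus 1, a fit of only the groups compared, a replicate term, and leaving out each library. The steps were tested on simulated data in which all groups had the same spread and allele counts varied by counting error only. That simulation does not cover the unequal spread between the groups here.

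The members, lists and tests were chosen with earlier results of these data known. Named beside the 6 members are up to 4 genes of each list with the smallest p against untreated (all of lists of 3 or fewer) and the 3 genes with the highest r to each member. Ccna2, Ccnb2, Cdk1, Cdk6, Mki67, Skp2, Trp53 and Trp73 were named after their values were seen. The values of 2 genes that the rule would name are not reported here. The reference annotation is of another build than the files, so no coordinates are given. Transcript sequences are from GENCODE M21.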

Additional observations from a re-analysis of the deposited data

Results flagged for a closer look

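For some genes the effect of VX680 differed with the presence of 5azadC, by edgeR's interaction test (adjusted p under 0.05, log2 scale). A negative value in a gene that rose, or a positive one in a gene that fell, means a joint change smaller than the sum of the single-drug log2 changes. Among the inhibitors these were Cdkn1a (-2.57), Cdkn2b (-1.48) and Cdkn2c (0.48). Among genes of the related lists, the negative values were those of Ccnd1 (-2.02), Ccnd2 (-1.84), Mdm2 (-0.75), Myc (-2.09), Klf4 (-1.54) and Id1 (-0.55). The positive values were those of Tfdp2 (0.57), Pcna (0.60), Ezh1 (0.96), Cbx2 (0.53), Cdkn1c (1.22) and Glb1 (0.58). Among cell type markers and RNA quality genes they were Pdgfrb (-0.97), Acta1 (-1.17), Col2a1 (-2.58), Sox9 (1.18), Jun (-1.32), Hspa1b (-1.33), Malat1 (0.51) and Rn45s (0.80). Over all genes 15.6% had a called interaction. Of 13 alternatives tried on each gene, the calls of Cdkn1a, Cdkn2b, Ccnd1, Ccnd2, Mdm2, Myc, Klf4, Ezh1, Pdgfrb, Acta1, Jun and Hspa1b were lost in 0. Those of Id1 and Col2a1 were lost in 9, Tfdp2 in 8, Pcna in 7, Cbx2 in 6, Cdkn2c and Cdkn1c in 5, Glb1 and Sox9 in 4, Malat1 in 3 and Rn45s in 2. Of these 11 genes, leaving out VX680 replicate 1 or combination replicate 2 ended the call of all but Sox9, VX680 replicate 2 that of all but Malat1 and Rn45s, and combination replicate 1 that of all but Glb1 and Rn45s. Without untreated replicate 1 the calls of Cdkn2c, Tfdp2, Pcna, Id1, Col2a1 and Sox9 were lost, and without untreated replicate 2 those of Id1, Cbx2, Cdkn1c, Glb1, Col2a1 and Sox9. Without 5azadC replicate 1 those of Pcna and Id1 were lost, and without 5azadC replicate 2 those of Tfdp2 and Col2a1. DESeq2 did not call Tfdp2, Pcna, Id1, Cbx2 and Col2a1, limma on the deposited signal did not call Tfdp2 and Id1, and with the replicate block Col2a1 was lost (adjusted p = 0.0523). What sets these differences was not tested.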

How the results depend on the processing

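Replicate numbers share only a number: same-numbered libraries of any pair of groups correlated between -0.0622 and 0.0326 in their deviations. With the replicate block the members called were 5, 4, 4, 3, 1, 2 and 3 in the order of the report, against 5, 4, 4, 4, 1, 2 and 3 without it; the call lost was that of Cdkn2a between the combination and 5azadC (adjusted p = 0.077). The block changed no other call of a member.

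Cdkn1a, Cdkn1b, Cdkn2b and Cdkn2c kept their direction and stayed past the threshold against untreated in each alternative run, and Cdkn2a did so with 5azadC. These runs used all reads of a gene, and the allele-assigned reads of Cdkn2a did not show its 5azadC rise, as given above. The members called between the combination and VX680 numbered 3 when only those groups were fitted and 0 to 2 without 1 library, where genes called went from 822 to 2014, to 1299 with no low-count filter, and to between 114 and 1566. VX680 against 5azadC had 1 member called when only those groups were fitted and 1 to 2 without 1 library (genes 1998, 1283 and 801 to 2482). The interaction had 5 with no low-count filter, and the genes called there, 1967, ranged from 948 to 2721 without 1 library. Genes called between the combination and 5azadC, 3139, ranged from 1629 to 3179 without 1 library. Unequal alleles in untreated cells numbered 2, and 1 to 2 without 1 library. Genes with a changed allele ratio were 29, 39 and 53, and 18 to 36, 17 to 46 and 23 to 63 without 1 library.

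The sign changes found in these settings were in values that passed no threshold, with or without the library. With only the groups compared, Cdkn2a was 0.000291 between the combination and VX680, and on the deposited signal Cdkn1b was 0.0541 between VX680 and 5azadC. Leaving out 1 library gave these log2 ranges across 0. Cdkn2d was -0.28 to 0.98 with 5azadC, -0.34 to 0.14 between the combination and VX680, and -1.08 to 0.17 in the interaction. Cdkn2a was -0.0298 to 0.0205 between the combination and VX680, and between VX680 and 5azadC Cdkn1b was -0.20 to 0.087 and Cdkn2c -0.10 to 0.13. The mus to cas ratio of Cdkn1a was -0.18 to 0.30 untreated, -0.22 to 0.0895 with 5azadC and -0.0841 to 0.0226 with both, and with both that of Cdkn2b was -0.76 to 0.12 and of Cdkn2c -0.42 to 0.34. The change of the ratio with 5azadC was -0.36 to 0.11 for Cdkn1a, -0.0441 to 0.26 for Cdkn2a and -0.12 to 0.22 for Cdkn2b. With VX680 it was -0.32 to 0.16 for Cdkn1a, -0.11 to 0.10 for Cdkn1b, -0.0924 to 0.22 for Cdkn2a and -0.15 to 0.0613 for Cdkn2c. With both it was -0.33 to 0.15 for Cdkn1a, -0.0318 to 0.18 for Cdkn1b, -0.0644 to 0.24 for Cdkn2a and -0.13 to 0.63 for Cdkn2c. The cause of these changes was not tested. Cdkn2d had 10 to 39 reads a library, and Cdkn2b had 60 to 185 allele-assigned reads. Signs also changed at more reads, as for the allele ratio of Cdkn2c with both drugs (245 and 253 reads).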
